A study of Sus scrofa with 63 samples.

Results

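The enzymes described here build purine nucleotides or break pyrimidine bases down in the liver. They are PRPS2, PPAT, GART, NME1, DPYD and DPYS, and their members on the array are all probe-sets annotated to these 6 genes. This gave 12 probe-sets of 23935, after control probe-sets were left out. GART and PRPS2 have 3 probe-sets each, DPYS has 3, and PPAT, NME1 and DPYD have 1 each. The probe-set with the highest mean over all arrays is called the lead probe-set of its gene, and all 6 lead probe-sets were above the background on every array.

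The livers of 63 HP offspring were measured, each on an Affymetrix porcine array of its own. They came from 16 fetuses at 94 dpc (days after conception) and, with age in dpn (days after birth), from 16 piglets at 1 dpn, 15 at 28 dpn and 16 pigs at 188 dpn. All dams were German Landrace gilts on the gestational high protein diet, and no animal of another diet was analysed here, so every comparison is one of age. Per the methods of the study the animals came in sib pairs, the fetuses belonged to a separate experiment with Caesarean section, and the animals kept beyond 1 dpn were cross-fostered, with the males among them castrated early. The lightest and heaviest sibs were taken at 94 dpc and 1 dpn. The pigs of 28 dpn and 188 dpn had fasted overnight, and the way of killing differed between 94 dpc, 1 dpn and the later stages. All of these go with age and cannot be told apart from it. The labels used here give no sex, mother or sib pair, so the p-values treat every animal as independent.

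De novo purine synthesis assembles the purine ring on phosphoribosyl pyrophosphate (PRPP), which PRPS1 and PRPS2 make from ribose phosphate and ATP. PPAT carries out the first committed step, GART is a single protein with several enzyme activities that catalyses early steps, and PFAS, PAICS, ADSL and ATIC lead on to inosine monophosphate. NME1 is a nucleoside diphosphate kinase, which passes phosphate between nucleotides of any base. Uracil and thymine are reduced by DPYD, the rate-limiting enzyme of pyrimidine breakdown, then opened by DPYS and converted to beta-alanine or its methylated form by UPB1, and the liver is a major site of this route.

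The values are log2 signals, so a difference of 1 is a 2-fold difference. Signals of different probe-sets depend on their probes and are not compared as levels. Adjacent stages define period I (94 dpc to 1 dpn), period II (1 dpn to 28 dpn) and period III (28 dpn to 188 dpn). A change is given with its standard error (SE), and it was called where the moderated test of limma gave a p under 0.05 after Benjamini-Hochberg adjustment over all probe-sets tested in that comparison. The background of an array is the 95th percentile of 23 control probe-sets that have no target, and its stage means ran from 5.64 to 6.10.

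GART had the largest changes among the lead probe-sets of the 6 genes in period II, and PPAT in periods I and III. In period I PPAT, GART and NME1 rose, PRPS2 and DPYD fell, and DPYS was not called. Of all probe-sets tested in that period, 22.9% rose and 34.0% fell. In period II PRPS2 and DPYS rose, PPAT and GART fell, and NME1 and DPYD were not called, where 28.8% of all probe-sets rose and 42.9% fell. In period III PPAT, DPYD and DPYS rose, and GART, PRPS2 and NME1 fell, where 12.3% rose and 22.5% fell. Counted over genes with 1 lead probe-set each, 28.0%, 34.1% and 13.6% rose in the 3 periods, and 30.9%, 36.8% and 26.6% fell. With calls so frequent on these arrays, the number of member genes called is not in itself a result about them. Of called probe-sets in the 3 periods, 40.2%, 40.1% and 35.4% rose. These shares were 48.1%, 51.5% and 47.4% after quantile normalization and 50.9%, 54.6% and 56.2% after centring on the median.

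**Figure D1:**
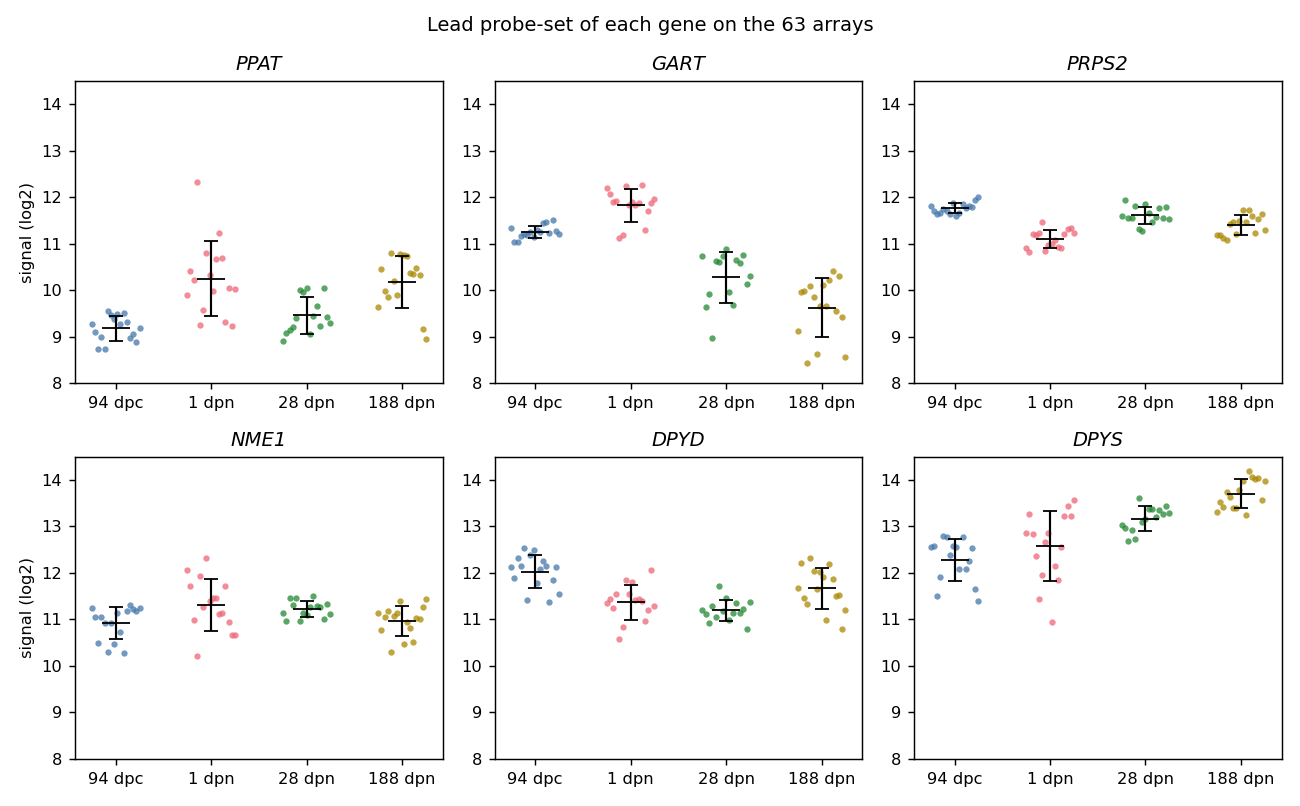
Log2 signal of the lead probe-set of each of the 6 genes (vertical axis) on every array, by stage (horizontal axis, 16, 16, 15 and 16 arrays). Points are arrays, the black line and bars are the mean and SD; GART is highest at 1 dpn and lowest at 188 dpn, PRPS2 is lowest at 1 dpn, and DPYS is highest at 188 dpn.

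PRPS2 makes PRPP, the starting material of purine synthesis. Its lead probe-set (Ssc.4521.2.S1_at) lay between 11.61 and 12.00 at 94 dpc, with a median of 11.76. At 1 dpn it lay between 10.82 and 11.47 (median 11.14), so that no array of 1 dpn reached the lowest array of 94 dpc. At 28 dpn it lay between 11.28 and 11.93 (median 11.58), and at 188 dpn between 11.08 and 11.74 (median 11.45). The signal fell by 0.66 (SE 0.07, adjusted p = 8.04e-10) in period I, a 1.58-fold decrease. In period II it rose by 0.51 (SE 0.08, adjusted p = 8.14e-07), and the arrays of both stages overlapped. In period III it fell by 0.21 (SE 0.08, adjusted p = 0.0329), a small change whose adjusted p was 0.318 after centring on the median and reached 0.0590 when single arrays were left out. The order of the stages was therefore 94 dpc, 28 dpn, 188 dpn and 1 dpn from high to low. All neighbours in this order differed by the test, but the step from 94 dpc to 28 dpn was only −0.15 (SE 0.06, adjusted p = 0.0320) and turned to 0.19 (adjusted p = 0.0131) after centring.

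The other probe-sets of PRPS2 did not follow the lead in every period. In period I Ssc.4521.1.S1_at differed by −0.15 (SE 0.13, adjusted p = 0.336) and Ssc.4521.3.S1_at by −0.05 (SE 0.14, adjusted p = 0.791). The fall of PRPS2 in that period was therefore called on its lead only. Ssc.4521.1.S1_at had stage means of 8.89 ± 0.30, 8.74 ± 0.41, 9.03 ± 0.21 and 8.57 ± 0.44 (SD, n = 16, 16, 15 and 16). It rose in period II by 0.29 (SE 0.12, adjusted p = 0.0307) and fell by 0.46 (SE 0.12, adjusted p = 0.00383) in period III, both in the direction of the lead. The call of period II was lost without the filter on level (adjusted p = 0.0507), without replicates 9, 11 and 12 of 1 dpn (0.0573) and without either replicate 2 or replicate 7 of 1 dpn (up to 0.0561). Ssc.4521.3.S1_at had means of 8.88 ± 0.43, 8.84 ± 0.35, 7.80 ± 0.48 and 7.46 ± 0.41. It fell by 1.03 (SE 0.15, adjusted p = 2.54e-07) in period II, in which the lead rose. On the same arrays the change of the lead exceeded that of Ssc.4521.3.S1_at by 1.54 ± 0.13 (SE, n = 16 and 15) in period II (permutation test, two-sided, adjusted p = 3.6e-05). The mean of the 3 probe-sets differed by −0.08 in period II (adjusted p = 0.475). The rise of PRPS2 in period II therefore rests on its lead probe-set, with a call near the threshold on a second and the opposite direction on the third, and where in the transcript each of them lies is not given in the sources used here.

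PRPS1, which makes the same product as PRPS2, moved the other way than the lead probe-set of PRPS2 in the first 2 periods. It rose by 0.37 (SE 0.09, adjusted p = 0.00120) in period I and fell by 0.86 (SE 0.09, adjusted p = 5.66e-10) in period II, with no overlap between its arrays of 1 dpn and 28 dpn. The change of PRPS2 was lower than that of PRPS1 by 1.03 on the log2 scale (SE 0.11, n = 16 and 16) in period I and higher by 1.37 ± 0.11 (SE, n = 16 and 15) in period II. Both differences had an adjusted p of 3.6e-05 in the permutation test. In period III both fell, PRPS1 by 0.47 and PRPS2 by 0.21, and the difference of 0.25 ± 0.10 had an adjusted p of 0.0271. These tests belong to a family of 18, with 6 pairs of probe-sets in 3 periods, and the pairs were chosen after their values were seen. The smallest unadjusted p that the permutations can give is 1e-05, and 3.6e-05 is that p after adjustment.

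**Figure D2:**
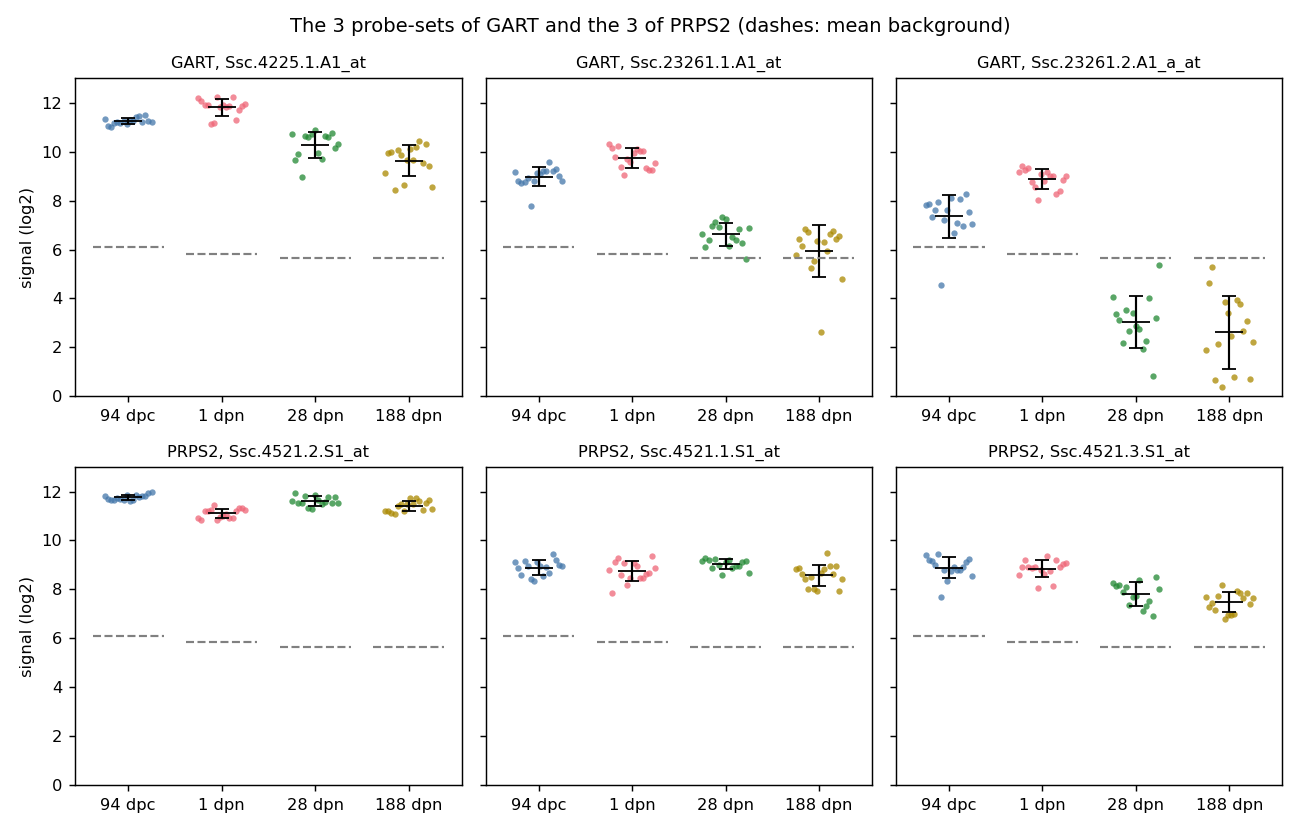
Log2 signal of the 3 probe-sets of GART (upper row) and the 3 of PRPS2 (lower row) by stage, with the lead probe-set at the left. Points are arrays, black bars are mean ± SD and grey dashes the mean background of the stage; all 3 probe-sets of GART are lower at 28 dpn than at 1 dpn, and Ssc.4521.3.S1_at of PRPS2 is lower at 28 dpn while its lead is higher.

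PPAT transfers the amide nitrogen of glutamine to PRPP and so commits it to purine synthesis. Its only probe-set (Ssc.8726.1.A1_at) lay between 8.73 and 9.54 at 94 dpc (median 9.23) and between 9.22 and 12.32 at 1 dpn (median 10.14). It lay between 8.90 and 10.06 at 28 dpn (median 9.40) and between 8.94 and 10.79 at 188 dpn (median 10.34). Adjacent stages overlapped throughout, and the spread was widest at 1 dpn, with an SD of 0.80 against 0.27 at 94 dpc. Replicate 4 of 1 dpn stood highest at 12.32, above the next array at 11.22.

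PPAT rose by 1.07 (SE 0.20, adjusted p = 3.55e-05) in period I, which is 2.10-fold with a 95% confidence interval from 1.58 to 2.80. It fell by 0.79 (SE 0.22, adjusted p = 0.00183) in period II and rose again by 0.71 (SE 0.17, adjusted p = 0.00127) in period III. From high to low the stage means were 10.25 at 1 dpn, 10.17 at 188 dpn, 9.46 at 28 dpn and 9.18 at 94 dpc. The difference between the first 2 of these was not called (−0.08, 95% confidence interval −0.56 to 0.39, adjusted p = 0.760). The step from 94 dpc to 28 dpn was 0.28 (SE 0.12, adjusted p = 0.0341), and it was no longer called in a rank-sum test (adjusted p = 0.110).

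GART is a multifunctional protein whose activities include glycinamide ribonucleotide synthetase and a formyltransferase. The lead probe-set (Ssc.4225.1.A1_at) lay between 11.03 and 11.52 at 94 dpc (median 11.24) and between 11.13 and 12.26 at 1 dpn (median 11.89). At 28 dpn it lay between 8.98 and 10.88 (median 10.59), below every array of 94 dpc and of 1 dpn. At 188 dpn it lay between 8.44 and 10.42 (median 9.76), and these arrays overlapped with those of 28 dpn. The signal rose by 0.57 (SE 0.10, adjusted p = 7.96e-06) in period I. It fell by 1.54 (SE 0.16, adjusted p = 4.57e-10) in period II, a 2.91-fold decrease with a 95% confidence interval from 2.33 to 3.65. In period III it fell by a further 0.66 (SE 0.20, adjusted p = 0.0116). Of 12 cell cycle genes tested 9 also fell in period II, and of 9 tested all fell in period III (5 and 9 after quantile normalization). In these periods 36.8% and 26.6% of all genes tested fell. The part of the cell cycle genes in the fall of GART was not tested. In bulk liver RNA such a decrease cannot be divided into fewer cells of a type and less RNA per cell.

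The second probe-set of GART (Ssc.23261.1.A1_at) had a steeper course. It lay between 7.80 and 9.57 at 94 dpc (median 9.05) and between 9.07 and 10.34 at 1 dpn (median 9.74). It lay between 5.63 and 7.34 at 28 dpn (median 6.62) and between 2.62 and 6.83 at 188 dpn (median 6.33). The arrays of both later stages lay below all of those of the earlier stages. On 14 of 15 arrays at 28 dpn and 11 of 16 at 188 dpn it was above background. It rose by 0.76 (SE 0.14, adjusted p = 2.16e-05) in period I and fell by 3.11 (SE 0.16, adjusted p = 2.05e-17) in period II, an 8.63-fold decrease with a 95% confidence interval from 6.93 to 10.8. In period III it was below the level required for a test.

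The third probe-set of GART (Ssc.23261.2.A1_a_at) lay between 4.54 and 8.27 at 94 dpc (median 7.57) and between 8.01 and 9.43 at 1 dpn (median 9.02). It rose by 1.53 (SE 0.23, adjusted p = 1.11e-06) in period I. At 28 dpn it lay between 0.84 and 5.36 (median 3.10), and no array was above background. Its signal at 28 dpn was therefore at least 9.38-fold lower than at 1 dpn and at least 3.25-fold lower than at 94 dpc, taking the background of each array as the highest level it could have had. At 188 dpn it lay between 0.37 and 5.30 (median 2.56), with 1 of 16 arrays above background, and no fold is given for that stage. All 3 probe-sets of GART had their highest mean at 1 dpn, the next at 94 dpc and lower ones at both later stages. The later stages have no order on the third probe-set, which was below background there on all arrays but 1. Whether the fall of period II differed in size between the probe-sets was not tested, and the labels do not say which transcripts each probe-set detects.

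PPAT and GART act one after the other, and their lead probe-sets did not change by the same amount. The change of PPAT was higher than that of GART by 0.50 ± 0.18 (SE, n = 16 and 16, permutation test, adjusted p = 0.00541) in period I and by 0.75 ± 0.21 (n = 16 and 15, adjusted p = 0.00252) in period II. The order in period I depends on the probe-set, as the third probe-set of GART rose by 1.53 and PPAT by 1.07. The other probe-sets of GART were not tested against PPAT. In period III PPAT rose and GART fell, and the difference was 1.37 ± 0.18 (n = 15 and 16, adjusted p = 3.6e-05). Within 188 dpn their signals went in the same direction from animal to animal (Pearson r = 0.64, Spearman rho = 0.55, n = 16), but neither passed adjustment over 60 relations between members (permutation test, p = 0.00751 and 0.0292, adjusted p = 0.113 and 0.199). Without the 2 arrays farthest from the median of PPAT, r was 0.58.

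Most other genes of de novo purine synthesis fell in period II. Of 8 genes listed 7 were on the array and 4 of them are not members (PRPS1, PAICS, ADSL and ATIC). In period II 3 of these 4 fell and none rose, where 36.8% of all genes tested fell, with a median change of −0.83 beside −0.01 over all genes tested. In period I 1 rose and 1 fell, and in period III again 1 rose and 1 fell. PAICS, which acts after GART, fell by 1.04 (SE 0.11, adjusted p = 7.68e-10) in period II and rose by 0.30 (SE 0.11, adjusted p = 0.0266) in period III. ATIC, which completes the ring, fell by 0.39 (SE 0.15, adjusted p = 0.0230) in period I, which was not called after centring, and by 0.79 (SE 0.14, adjusted p = 7.39e-06) in period II. ADSL was not called in any period, with changes of −0.12, −0.13 and −0.14.

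PPAT and PAICS are neighbours in the RefSeq annotation of the pig genome, and in mammals they are known as a divergently transcribed pair. In period I PPAT rose while PAICS differed by −0.09 (SE 0.12, adjusted p = 0.546), and the change of PPAT was higher by 1.16 ± 0.18 (SE, n = 16 and 16, permutation test, adjusted p = 3.6e-05). In period II both fell and the difference of 0.24 ± 0.16 was not called (adjusted p = 0.172). In period III both rose, PPAT by 0.41 ± 0.12 more (n = 15 and 16, adjusted p = 0.00283). GART lies between DNAJC28 and SON, NME1 between SPAG9 and NME2, and PRPS2 next to TLR8.

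**Figure D3:**
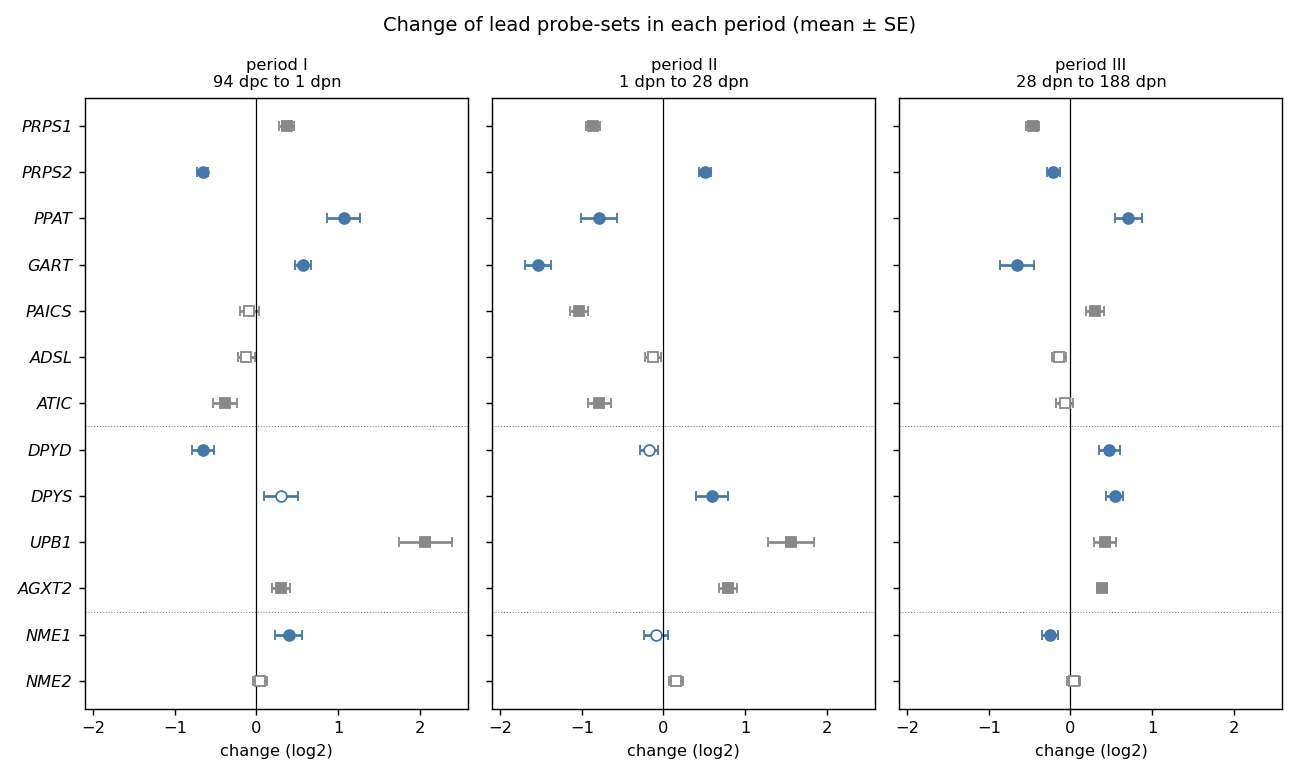
Change in log2 signal (horizontal axis, mean ± SE) of the lead probe-set of each gene in periods I, II and III. Blue circles are the members, grey squares other genes of purine synthesis (upper block), pyrimidine and beta-alanine breakdown (middle block) and NME2 (lower block), and open symbols were not called; in period II PRPS1, PPAT, GART, PAICS and ATIC fell while PRPS2, DPYS, UPB1 and AGXT2 rose.

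The formyl groups that GART and ATIC use come from folate one-carbon metabolism. Of 8 of its genes on the array 7 were tested, and 2, 2 and 3 rose and 1, 1 and 2 fell in periods I, II and III, with median changes of 0.12, 0.20 and 0.09 beside −0.03, −0.01 and −0.08 over all genes tested. After quantile normalization none of the 7 rose in period I. The counts of this paragraph stand beside 28.0%, 34.1% and 13.6% of all genes tested that rose in the 3 periods. The shares that fell were 30.9%, 36.8% and 26.6%. SHMT1, the cytosolic serine hydroxymethyltransferase, rose in period II by 1.37 (SE 0.14, adjusted p = 3.93e-10) and in period III by 1.31 (SE 0.10, adjusted p = 1.06e-11). ALDH1L1, which removes formyl groups from the folate pool, rose by 0.37, 1.02 and 1.17 in the 3 periods, the first of these not called after quantile normalization. MTHFD1L, which yields formate in mitochondria, fell by 1.18, 1.46 and 1.27. The other branches around inosine monophosphate had calls in both directions. Of 3 genes of purine salvage 2, 1 and 1 rose and 1, 2 and 0 fell in the 3 periods. HPRT1, which salvages purine bases with PRPP, rose by 1.02 (SE 0.10, adjusted p = 1.81e-10), 0.64 and 0.41 in the 3 periods, without overlap in the first. Of 5 genes tested in the branch to AMP and GMP 2, 1 and 0 rose and 3, 2 and 2 fell, and 2, 2 and 0 rose and 2, 1 and 1 fell after centring. IMPDH2, the entry to guanine nucleotides, fell by 1.05 (SE 0.11, adjusted p = 1.40e-09) in period I, and GMPS fell by 0.24 and 0.73 in periods I and II. Of 5 genes of purine breakdown tested 2, 3 and 1 rose and 2, 1 and 2 fell. UOX, which degrades uric acid, rose by 2.97 (SE 0.40, adjusted p = 1.69e-07), 1.69 and 1.25.

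NME1 balances nucleoside triphosphates. Its probe-set (Ssc.19546.1.S1_at) lay between 10.29 and 11.32 at 94 dpc (median 11.05), between 10.21 and 12.33 at 1 dpn (median 11.33), between 10.96 and 11.50 at 28 dpn (median 11.27) and between 10.30 and 11.44 at 188 dpn (median 11.05). All stages overlapped. It rose by 0.39 (SE 0.16, adjusted p = 0.0379) in period I and fell by 0.25 (SE 0.10, adjusted p = 0.0434) in period III, and in period II it differed by −0.09 (95% confidence interval −0.40 to 0.21, adjusted p = 0.583). Both calls lay near the threshold. Leaving out single arrays ended the call for 11 of 32 arrays in period I and 14 of 31 in period III. The fall of period III was 0.15 after centring (change −0.15, adjusted p = 0.326), and it had an adjusted p of 0.163 with all 63 arrays in 1 fit, and the rise of period I had one of 0.0688 after quantile normalization. From high to low the means were 11.32 at 1 dpn, 11.22 at 28 dpn, 10.97 at 188 dpn and 10.92 at 94 dpc. Neither the first pair nor the last pair in this order had a called difference (188 dpn against 94 dpc 0.05, 95% confidence interval −0.20 to 0.29, adjusted p = 0.719).

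NME2 is the neighbouring and closely related kinase gene, and it was not called in any period, with changes of 0.05, 0.15 and 0.04. The change of NME1 was higher than that of NME2 by 0.35 ± 0.13 (SE, n = 16 and 16, permutation test, adjusted p = 0.0146) in period I and lower in period III by 0.29 on the log2 scale (SE 0.07, n = 15 and 16, adjusted p = 0.00106). The sequences of the genes are similar enough that probes of one may detect the other, which was not tested. Of the 8 nucleotide kinase genes on the array 4, 1 and 0 rose and 0, 3 and 2 fell in periods I, II and III, of 7, 7 and 6 tested, with NME1 among those that rose in period I and fell in period III. Over all genes tested 28.0%, 34.1% and 13.6% rose and 30.9%, 36.8% and 26.6% fell, and after centring 0 of the 6 kinases were called in period III. NME3 rose in period II by 0.77 (SE 0.10, adjusted p = 2.26e-08) without overlap. CMPK1, the kinase of uridine and cytidine monophosphate, rose by 0.73 in period I and fell by 0.59 in period II. The study had itself listed NME1 and PRPS2 under purine and pyrimidine metabolism on these samples, so its list is not independent evidence. Of 13 of its genes on the array 4, 3 and 1 rose and 2, 7 and 8 fell in periods I, II and III, with NME1 and PRPS2 among them, beside the same shares over all genes tested. Their median changes were −0.02, −0.48 and −0.32, and after centring 3 fell in period III.

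DPYD is the first enzyme of pyrimidine breakdown. Its probe-set (Ssc.153.1.S1_at) lay between 11.37 and 12.53 at 94 dpc (median 12.13) and between 10.58 and 12.07 at 1 dpn (median 11.42). It lay between 10.79 and 11.72 at 28 dpn (median 11.19) and between 10.80 and 12.32 at 188 dpn (median 11.66). All stages overlapped. DPYD fell by 0.66 (SE 0.13, adjusted p = 6.18e-05) in period I, a 1.58-fold decrease with a 95% confidence interval from 1.31 to 1.89. It differed by −0.18 (95% confidence interval −0.41 to 0.05, adjusted p = 0.162) in period II and rose by 0.47 (SE 0.13, adjusted p = 0.00376) in period III. From high to low the means were 12.03 (94 dpc), 11.67 (188 dpn), 11.37 (1 dpn) and 11.20 (28 dpn). The difference between the last 2 was not called, nor was that between 188 dpn and 1 dpn (0.30, 95% confidence interval 0.002 to 0.59, adjusted p = 0.0652). The latter was called after centring (0.63, adjusted p = 0.000103), with all 63 arrays in 1 fit (adjusted p = 0.0329) and with arrayWeights of limma (adjusted p = 0.0121). The decrease of 0.36 from 94 dpc to 188 dpn (adjusted p = 0.0202) turned to 0.09 (adjusted p = 0.562) after centring.

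DPYS opens the reduced ring. Its lead probe-set (Ssc.28491.1.S1_at) lay between 11.39 and 12.79 at 94 dpc (median 12.46) and between 10.95 and 13.56 at 1 dpn (median 12.75). It lay between 12.69 and 13.60 at 28 dpn (median 13.21) and between 13.25 and 14.20 at 188 dpn (median 13.69). Each stage overlapped with the next, while every array of 188 dpn was above every array of 94 dpc. In period I the difference was 0.30 (95% confidence interval −0.13 to 0.73, adjusted p = 0.229). DPYS rose in period II by 0.59 (SE 0.20, adjusted p = 0.00797) and by 0.54 (SE 0.10, adjusted p = 0.000120) in period III. After quantile normalization the change of period II was 0.33 and was not called (adjusted p = 0.147). From 94 dpc to 188 dpn the rise was 1.43 (SE 0.14, adjusted p = 2.60e-11), which is 2.70-fold with a 95% confidence interval from 2.23 to 3.28. The means increased in the order of age, and the difference between the first 2 stages was not called.

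The other probe-sets of DPYS were too low to be tested in any comparison. Ssc.15961.1.S1_at had stage means of 3.63, 6.06, 4.02 and 3.70 and was above background on 0, 12, 4 and 1 arrays from the youngest to the oldest stage. Ssc.15961.1.A1_at had means of 2.03, 3.80, 3.05 and 2.18 and was above background on no array. Neither carries a course of DPYS that can be set beside that of the lead probe-set.

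The first 2 steps of pyrimidine breakdown therefore moved apart in periods I and II. In period I the change of DPYS was higher than that of DPYD by 0.95 ± 0.24 (SE, n = 16 and 16, permutation test, adjusted p = 0.00106) and in period II by 0.77 ± 0.21 (n = 16 and 15, adjusted p = 0.00106). In period III both rose and the difference was 0.07 ± 0.14 (adjusted p = 0.650). UPB1, the third enzyme of the route, rose in every period, by 2.07 (SE 0.33, adjusted p = 2.50e-06), 1.56 (SE 0.28, adjusted p = 1.21e-05) and 0.43 (SE 0.14, adjusted p = 0.0143). Of the genes for the breakdown of beta-alanine, AGXT2 rose by 0.30, 0.79 and 0.39, and ABAT was tested in period III only, where it rose by 0.92 (SE 0.15, adjusted p = 1.55e-05).

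**Figure D4:**
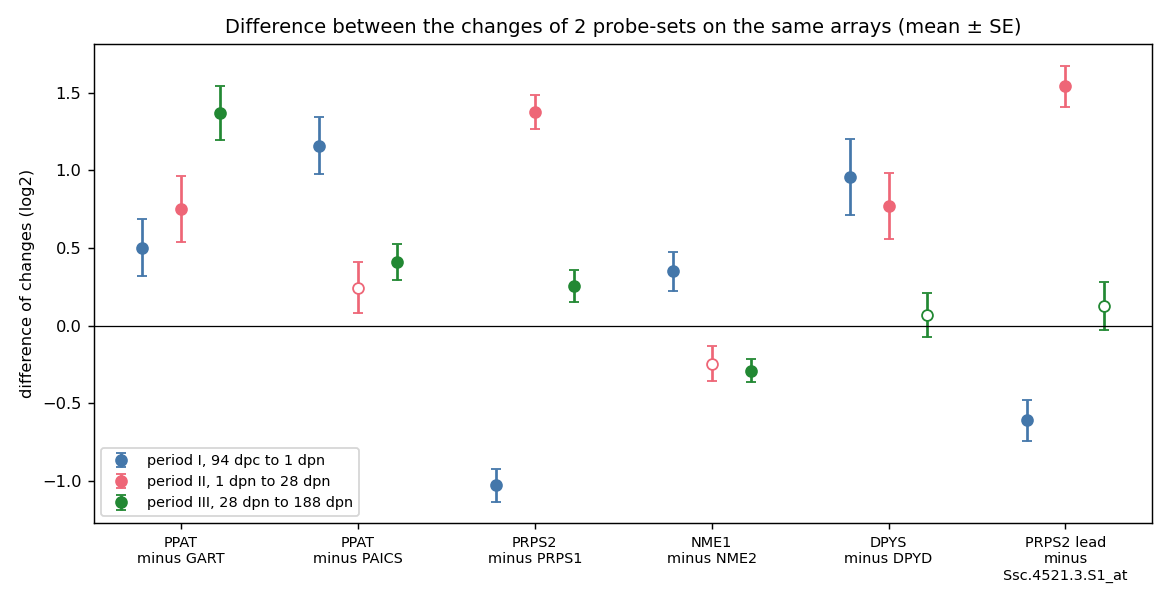
Difference between the log2 changes of 2 probe-sets measured on the same arrays (vertical axis, mean ± SE) for 6 pairs in periods I, II and III. Open symbols have an adjusted p of 0.05 or more in the permutation test over 18 differences. On lead probe-sets PRPS2 lies below PRPS1 in period I and above it in period II, and PPAT lies above GART in all 3 periods.

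Across stages that are not adjacent, from 94 dpc to 28 dpn PPAT, NME1 and DPYS rose and GART, PRPS2 and DPYD fell, where 29.2% of all probe-sets tested rose and 51.0% fell, and PRPS2 turned after centring as given above. From 94 dpc to 188 dpn PPAT and DPYS rose, GART, PRPS2 and DPYD fell, and NME1 was not called, where 27.0% rose and 53.1% fell. After centring PRPS2 and DPYD were 0.08 and 0.09 here and were not called (adjusted p = 0.299 and 0.562). From 1 dpn to 188 dpn PRPS2 and DPYS rose, GART fell, and PPAT, NME1 and DPYD were not called, where 27.6% rose and 46.1% fell. As the mean of its 3 probe-sets PRPS2 fell here by 0.42 (change −0.42, adjusted p = 0.000380). These comparisons share their arrays with the adjacent ones. GART had its largest difference here, 2.20 lower at 188 dpn than at 1 dpn on the lead probe-set (change −2.20, SE 0.18, adjusted p = 6.92e-13), and PPAT was 0.99 higher at 188 dpn than at 94 dpc (SE 0.15, adjusted p = 5.19e-07).

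Markers of other cell types also changed with age in these livers. Beside the counts given here, 28.0%, 34.1% and 13.6% of all genes tested rose in the 3 periods, and 30.9%, 36.8% and 26.6% fell. ALB and APOA1 were high at all stages, with ALB at 15.57 to 16.04 in the stage means, so the tissue matched its label. The median change of 13 hepatocyte genes was −0.30, −0.21 and 0.11 in the 3 periods and 0.007 from 1 dpn to 188 dpn. AFP had stage means of 15.45 at 1 dpn, 7.30 at 28 dpn and 3.47 at 188 dpn. The mean of the 13 genes was lower at the later stages, by more than their median change. It lay between 15.17 and 15.65 at 94 dpc, 14.92 and 15.54 at 1 dpn, 14.17 and 14.94 at 28 dpn and 13.92 and 14.68 at 188 dpn. The mean of 13 cell cycle genes lay between 8.30 and 9.47 at 94 dpc, 5.75 and 9.68 at 1 dpn, 6.42 and 8.07 at 28 dpn and 5.15 and 6.68 at 188 dpn. Of those tested 2 of 12 fell in period I, 9 of 12 in period II and 9 of 9 in period III, and 1, 0 and 0 rose. In period II 5 fell after quantile normalization and 7 after centring. The mean of 6 red cell precursor genes lay between 10.50 and 12.03 at 94 dpc and between 7.20 and 8.47 at 1 dpn, and all 6 fell in period I. At 28 dpn it lay between 7.43 and 8.81 and at 188 dpn between 6.79 and 8.27, where 3 of 3 tested rose in period II and 2 of 3 fell in period III. Of 9 macrophage genes 3, 6 and 0 rose and 0, 0 and 9 fell in the 3 periods, with means of 6.95 to 10.82, 10.12 to 11.51, 11.37 to 12.25 and 10.65 to 11.39 by stage. Of 9 T and NK cell genes 5 were tested in periods II and III and 5 rose in period II, with means of 4.66 to 7.03, 4.54 to 6.01, 6.51 to 7.82 and 6.65 to 7.89. Of 13 hepatocyte genes 1, 2 and 1 rose and 8, 7 and 1 fell, and the direction depended on the scaling, with 6 rising and 2 falling in period I after quantile normalization and 4 rising and 2 falling in period II after centring. No defining marker had a stage mean of 0, and TOP2A, RRM2, KLF1, CD3E, CD8A and AFP were below background on some arrays. At 188 dpn AFP, with a mean of 3.47, was above background on 1 of 16 arrays and TOP2A on 6 of 16. The part of these cell types in the changes of the 6 genes was not tested.

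At 1 dpn the cell cycle genes divided the arrays, with replicates 9, 11 and 12 at 6.48, 5.75 and 6.58 and all others at 7.85 or above. On these 3 arrays the lead probe-set of GART stood at 11.90, 11.89 and 12.26, of which the last was the highest of the stage and the others lay among the remaining arrays. Without them the change of GART in period II was −1.50 on the log2 scale instead of −1.54, and DPYS in period I rose by 0.48 (adjusted p = 0.0356), which had not been called with all arrays. DPYS stood at 10.95, 11.84 and 12.56 on them, below its stage median of 12.75. Over the 16 arrays of 1 dpn the mean of the cell cycle genes and DPYS had a Pearson r of 0.62 and a Spearman rho of 0.62 (permutation test, p = 0.0104 and 0.0118, adjusted p = 0.247 and 0.577 over 96 relations), and r was 0.37 without the 2 arrays farthest from the median.

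Within a stage hardly any relation between members from animal to animal passed adjustment. Each rests on 15 or 16 arrays, so this does not show that the members are unrelated. Of 60 pairs of members and stages none had an adjusted p under 0.05 by Pearson's r. By Spearman's rho 1 had, GART and NME1 at 188 dpn (rho = −0.77, adjusted p = 0.0426, n = 16), where r was −0.66 (adjusted p = 0.113) and −0.59 without the 2 farthest arrays. GART and DPYD at 1 dpn had the largest r of 0.73 (rho = 0.46, adjusted p = 0.0639 and 0.256, permutation test), and it was 0.43 without the 2 farthest arrays. GART and PRPS2 at 1 dpn had an r of −0.70 (rho = −0.70, adjusted p = 0.0639 and 0.114, permutation test). No relation between a member and the array median, the labelling measure, the cell cycle mean or the red cell mean passed adjustment.

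Genes with a course like that of a member were named by Pearson's r over the 63 arrays, as a description that shares stage and array scaling. The closest to GART were C14H10orf99 (0.94), HSPA4 (0.93) and ERLEC1 (0.93), of 7362 candidates, and after the stage means were removed r was 0.75, 0.68 and 0.72. The closest to PPAT were RWDD1 (0.79), CTH (0.78), which makes cysteine from cystathionine, and OLA1 (0.75). The closest to PRPS2 were ITM2C (0.81), CNRIP1 (0.79) and TXNIP (0.78), with r of 0.44, 0.33 and 0.44 after stage means were removed. For NME1 they were NEDD8 (0.73), MINOS1 (0.70) and MRPS11 (0.68), for DPYD VEGFA (0.79), ST13 (0.79) and SYPL1 (0.78), and for DPYS GALM (0.86), PEBP1 (0.83) and C4BPB (0.83).

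The median of an array was lower at later stages, with stage means of 7.38 (94 dpc), 7.23 (1 dpn), 6.83 (28 dpn) and 6.72 (188 dpn). For the RNAs added as a labelling control, probe-sets at the 3′ end exceeded those at the 5′ end by 0.33, 1.12, 1.35 and 1.05 in these stages, over 12 pairs of probe-sets. The ranges of this difference did not overlap between 94 dpc and the later stages, so labelling and stage cannot be told apart in period I. With it as a covariate the change of GART in period II was −1.63 instead of −1.54. In period III the covariate ended the calls of PRPS2 on its lead (adjusted p = 0.0543) and of NME1 (adjusted p = 0.0737). The change of Ssc.4521.3.S1_at of PRPS2 in that period was then −0.62 (adjusted p = 3.46e-05). Without the covariate it was −0.34 and not called (adjusted p = 0.0896).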

How the data were processed

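Liver RNA of 63 HP offspring was measured on Affymetrix porcine arrays with 24123 probe-sets. The authors deposited log2 signals, and the labels name the software GCOS 1.1.1. The values behave as MAS5 signals scaled to a trimmed mean of 500 on each array (499.7 to 499.8, without the top and bottom 2%). No normalization between arrays beyond this scaling was seen. The GCRMA values, detection calls and mixed model of the study were not used here. Arrays have no read depth, and the precision is limited by their number and by how far a signal lies above background.

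Control probe-sets (188) were left out. Of the others 10069 carried exactly 1 symbol in the platform annotation, 198 several and 13668 none. Only the 2 stages compared entered a fit, which used lmFit and eBayes of limma 3.58.1 under R 4.3.3, two-sided. Tested were probe-sets whose signal passed the 50th percentile of the array in 50% or more of the animals of either stage (12839, 13078 and 12418 in periods I, II and III). Lists use 1 probe-set per gene, that of the highest mean. Differences between changes and correlations used 100000 permutations. The fit was tested on simulated data. The members and lists were chosen with earlier results of these data known. Named genes are the members, up to 4 genes with the largest changes of each pathway list, defining markers and the 3 genes most like each member, with a few more genes of the lists chosen after their values were seen. Alternatives changed the filter, scaling, fit, threshold, probe-set rule and arrays. Groups came from the labels. Neighbouring genes came from the RefSeq annotation, which matched all 6 symbols.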

Additional observations from a re-analysis of the deposited data

How the results depend on the processing

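The called changes of the lead probe-sets of the 6 genes kept their direction in all 3 periods under every alternative run, except PRPS2 in period II as the mean of its probe-sets (−0.078, adjusted p = 0.475). NME1 and DPYD in period II, which were not called, were 0.13 and 0.047 after centring. Between stages that are not adjacent 6 called values turned. PRPS2 from 1 dpn to 188 dpn was −0.42 as the mean of its probe-sets. After centring, PRPS2 was 0.19 from 94 dpc to 28 dpn and 0.084 from 94 dpc to 188 dpn on its lead, 0.13 on Ssc.4521.1.S1_at (0.11 after quantile normalization), and DPYD was 0.086 from 94 dpc to 188 dpn. At a change of at least 2-fold 1, 1 and 0 member genes were called in periods I, II and III, 0 from 94 dpc to 28 dpn and 2 from 94 dpc to 188 dpn. At an adjusted p under 0.01 the count of period III was 3, and from 1 dpn to 188 dpn it was 5 with all 63 arrays in 1 fit and 5 with arrayWeights, beside 3 as reported. The study's list had 4 genes called after centring in period III, beside 9. In period I 1 folate gene was called after quantile normalization beside 3, and in period II 5 after centring and 5 with the mean of probe-sets beside 3. After quantile normalization AGXT2 was not called in period I, and 1 gene of pyrimidine breakdown was called in period II beside 2. Of the nucleotide kinases 0 were called after centring in period III beside 2. Centring raised the median change of the tested probe-sets by 0.10, 0.23 and 0.10 in the 3 periods, and quantile normalization by 0.08, 0.16 and 0.07. Leaving out single arrays was not run for stages that are not adjacent, and the labelling covariate was not run where its ranges did not overlap. Signals below background are not measured levels, and no scaling used here can tell a shift of the whole array from one of its probe-sets. No paired analysis was possible because the labels give no mother or litter, and replicate numbers here only follow the order of the samples. Per the methods of the study, piglets of each litter were divided over the postnatal stages, so animals of different stages may share a dam.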
